A study of Mus musculus with 12 samples.

Results

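The receptors and ligands of the platelet-derived growth factor (PDGF) and Kit pathways were examined in haploid and diploid mouse epiblast stem cells. The 7 genes were the receptors Pdgfra, Pdgfrb and Kit, the PDGF chains Pdgfa, Pdgfb and Pdgfc, and Kitl, which encodes stem cell factor, the ligand of Kit. Every probe set on the array whose only gene symbol was one of these was taken, whatever its signal, which gave 17 of 45101 probe sets and 7 of the 18193 genes with a probe set of 1 symbol. Of the 17, 11 passed the filter on low signal (a mean signal of at least 62.6) and entered the tests, with at least 1 for each gene.

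Epiblast stem cells are pluripotent cells whose counterpart in the embryo is the epiblast after implantation. The haploid cells, labelled 129Sv, formed the groups haploid EpiSC-2 and haploid EpiSC-1, and the diploid cells, labelled B6D2F1, formed diploid EpiSC-2 and diploid EpiSC-1, here read as separate lines. Each group had 3 arrays labelled as biological replicates, and all cells were grown in N2B27 medium with added bFGF and Activin A. Total RNA was hybridised to Affymetrix mouse 430 2.0 arrays, which gave 1 signal per probe set. All haploid cells were of one strain and all diploid cells of another, so ploidy and strain cannot be told apart. The labels do not say how the replicates of a line were separated, so p-values between lines measure only the spread between these arrays.

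PDGF receptors and Kit are related receptor tyrosine kinases that dimerise on ligand binding. The PDGF chains form dimers, of which PDGF-AA and PDGF-CC act mainly through the alpha receptor, whereas PDGF-BB binds both receptors. In mouse embryos Pdgfra marks the primitive endoderm and early mesoderm, Pdgfrb marks mesenchymal cells and pericytes, and Kit is needed by germ cells, blood progenitors, mast cells and melanoblasts.

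The array totals were set by the authors' scaling, with array medians between 63.6 and 76.5. Pearson correlations of log2 signal were 0.987 to 0.990 between arrays of a line, 0.949 to 0.957 between lines of a ploidy and 0.871 to 0.915 between ploidies. All 10 markers of the pluripotent epiblast had mean signals above the filter in every line, but Otx2 and Fgf5, named after their values were seen, were close to it in haploid EpiSC-1. Otx2 averaged 2290 ± 60.6 in haploid EpiSC-2 and 74.0 ± 7.25 in haploid EpiSC-1, against 2133 ± 124 in diploid EpiSC-2 and 3962 ± 94.7 in diploid EpiSC-1 (SD, n = 3 each). Fgf5 averaged 2424 ± 84.9 in haploid EpiSC-2 and 86.9 ± 32.2 in haploid EpiSC-1, against 2332 ± 202 in diploid EpiSC-2 and 3621 ± 202 in diploid EpiSC-1. Both thus set haploid EpiSC-1 apart from the other lines. The 10 markers' summed signal was 41938 to 43417 in haploid EpiSC-2, 29985 to 30331 in haploid EpiSC-1, 54105 to 56002 in diploid EpiSC-2 and 66536 to 69758 in diploid EpiSC-1.

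Promoter sequences from a RefSeq table of the GRCm38.p6 assembly matched 5 of the 7 genes, namely Pdgfra, Kit, Pdgfa, Pdgfc and Kitl. The 250 bases before the gene start are shown for Pdgfc and Pdgfra, which were higher in both haploid lines, and for the receptor and ligand pair Kit and Kitl, whose signals were ordered differently over the lines. All 4 genes lie on the plus strand, and capitals mark matches to a TATA box (TATAAA) or a GC box (GGGCGG) on either strand.
Pdgfc chr3:81036166-81036415: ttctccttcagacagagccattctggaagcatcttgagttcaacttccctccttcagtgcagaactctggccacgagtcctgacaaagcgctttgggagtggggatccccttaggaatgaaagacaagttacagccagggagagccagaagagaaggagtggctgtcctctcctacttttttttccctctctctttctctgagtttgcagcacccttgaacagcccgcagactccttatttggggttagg
Pdgfra chr5:75152001-75152250: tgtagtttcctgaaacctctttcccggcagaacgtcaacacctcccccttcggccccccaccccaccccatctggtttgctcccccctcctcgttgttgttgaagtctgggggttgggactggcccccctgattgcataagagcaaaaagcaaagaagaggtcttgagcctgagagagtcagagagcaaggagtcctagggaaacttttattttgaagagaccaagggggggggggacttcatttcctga
Kitl chr10:100015571-100015820: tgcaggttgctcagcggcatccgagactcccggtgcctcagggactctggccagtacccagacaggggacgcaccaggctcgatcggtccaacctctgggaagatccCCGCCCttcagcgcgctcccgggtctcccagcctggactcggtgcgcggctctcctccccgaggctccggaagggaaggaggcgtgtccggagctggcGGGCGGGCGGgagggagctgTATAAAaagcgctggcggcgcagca
Kit chr5:75574737-75574986: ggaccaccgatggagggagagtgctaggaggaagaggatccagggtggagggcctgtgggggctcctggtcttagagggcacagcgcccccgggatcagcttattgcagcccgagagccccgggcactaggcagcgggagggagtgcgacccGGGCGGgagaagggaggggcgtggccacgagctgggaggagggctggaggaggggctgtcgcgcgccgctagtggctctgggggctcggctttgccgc

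The Pdgfc and Pdgfra stretches held 3 and 4 CpG dinucleotides, more than 29.05% and 37.8% of 32817 RefSeq promoter windows of 250 bases. The median over these windows was 6. The Kitl and Kit stretches held 23 and 17, more than 86.7% and 76.5% of the windows. The windows of Pdgfa, not shown, held 19 and 28, more than 80.3% and 92.4%. Kitl had a TATA box beginning 25 bases before the start and 3 GC boxes, 2 of them overlapping, and Kit had 1 GC box. A TATA box was present in 12.4% of all windows and a GC box in 32.7%. None of the 4 stretches held the Snail and Zeb E-box CACCTG or the AP-1 site TGANTCA on either strand, which 17.2% and 6.75% of all windows held. A match of letters describes the sequence and does not show that a factor binds there.

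Haploid cells were compared with diploid cells first. Of the 11 tested member probe sets, 6 had higher signal in haploid cells and 0 had lower signal, in a limma fit with the line as a random block. Over all 19837 tested probe sets, 15.9% were called, 9.37% higher and 6.54% lower. The median log2 fold change was 1.34 over the 11 member probe sets and 0.03 over all tested probe sets. With 2 lines per ploidy, the block p-values are likely too small, so the adjusted p from a fit with each line's mean as 1 unit is given beside them. In that fit 4 member probe sets were called, those of Pdgfra, Pdgfrb and Pdgfc, all higher in haploid cells, where 3.03% of all tested probe sets were called, 2.01% higher and 1.02% lower.

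**Figure D1:**
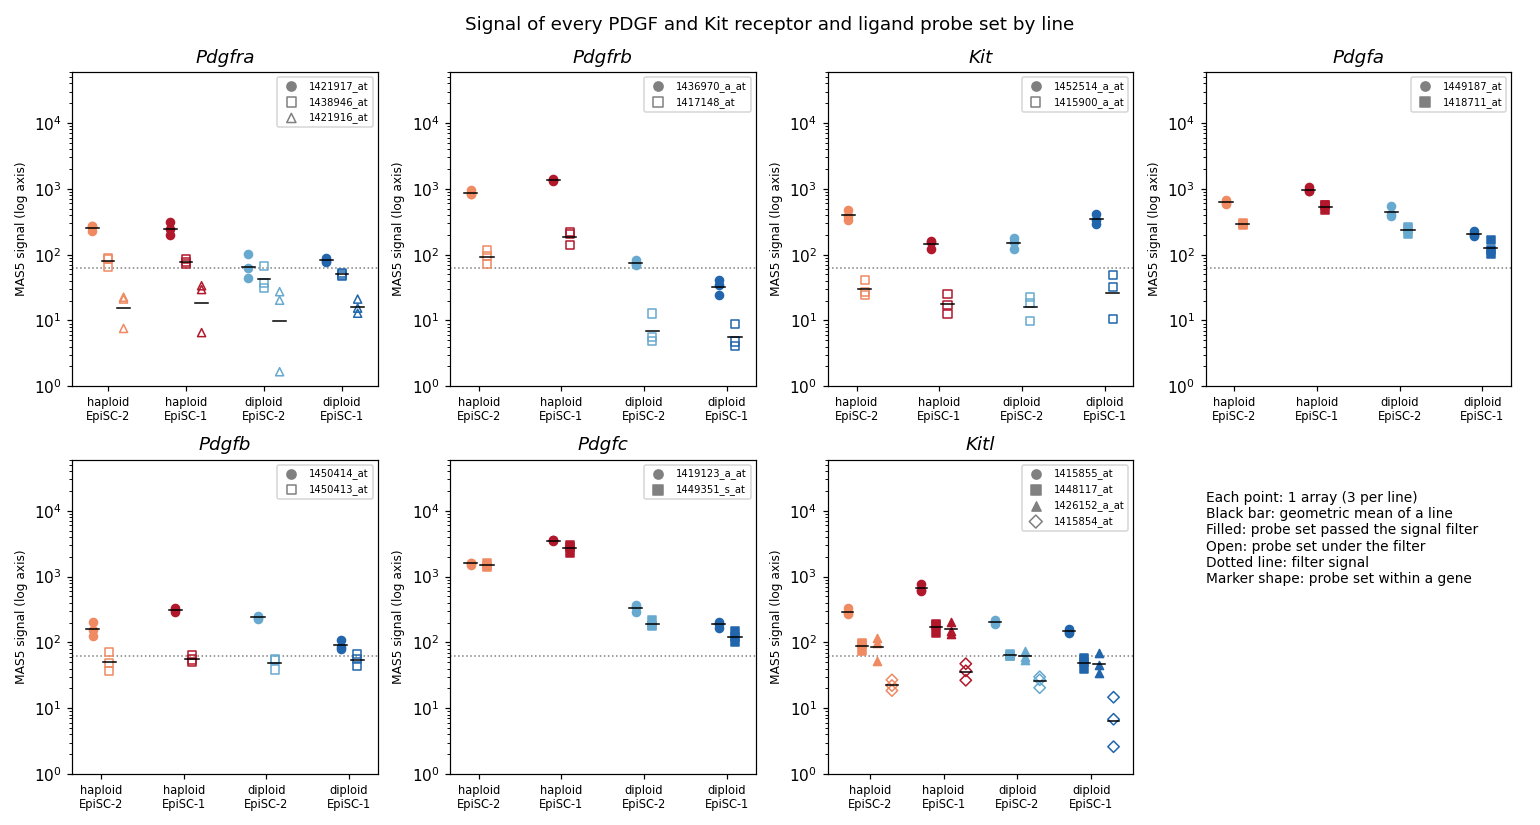
MAS5 signal of all 17 member probe sets on a log axis, by line, with 1 point per array and a bar at the geometric mean of the 3 arrays. Filled markers are the 11 probe sets that passed the filter and the dotted line is the filter signal of 62.6. The Pdgfrb and Pdgfc points of both haploid lines lie above every diploid point of the same probe set.

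Among the receptors, Pdgfrb, the receptor for PDGF-BB in mesenchymal cells and pericytes, had the largest difference between the ploidies of the 11 tested member probe sets. Its brighter probe set, 1436970_a_at, had signals of 833.3, 947.9 and 828.7 in haploid EpiSC-2 and 1303, 1358 and 1392 in haploid EpiSC-1. The same probe set had 69.47, 73.25 and 82.82 in diploid EpiSC-2 and 40.56, 24.22 and 34.71 in diploid EpiSC-1. Every haploid array was far above every diploid array, and no 2 lines overlapped. The log2 fold change was 4.46 ± 0.43 (SE), a fold of 22.0, with an adjusted p of 4.18e-06 (limma) and 0.0104 with line means. All 3 arrays of diploid EpiSC-1 lay under the filter signal, so the size of the fold is uncertain. The dimmer probe set, 1417148_at, was under the filter by its mean over all arrays. Its signals were 72.5 to 119.5 in haploid EpiSC-2 and 142 to 219.1 in haploid EpiSC-1, against 4.86 to 12.8 in diploid EpiSC-2 and 4.16 to 8.81 in diploid EpiSC-1. With no filter its log2 fold change was 4.40 ± 0.66 (SE), with an adjusted p of 2.21e-04, where 16.2% of all probe sets were called. All its diploid arrays were far under the filter signal, so this size is uncertain too.

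Pdgfra, the alpha receptor that binds PDGF-AA and PDGF-CC, was also higher in haploid cells, by a smaller amount. Probe set 1421917_at had signals of 276.7, 269.7 and 227 in haploid EpiSC-2 and 313.9, 196 and 241.4 in haploid EpiSC-1. It had 43.46, 62.47 and 104 in diploid EpiSC-2 and 81.39, 89.56 and 76.48 in diploid EpiSC-1. The ploidies did not overlap, whereas the lines within each ploidy did, and 2 of the diploid EpiSC-2 arrays lay under the filter signal. The log2 fold change was 1.77 ± 0.57 (SE), a fold of 3.42, with an adjusted p of 0.0451 (limma) and 0.0392 with line means. This call is close to the threshold: it was lost in 16 of 25 alternative settings, with adjusted p up to 0.0848. Of the other Pdgfra probe sets, 1438946_at had a mean just under the filter and an adjusted p of 0.291 with no filter, and 1421916_at was under the filter signal on all 12 arrays.

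For Kit, the receptor of stem cell factor, the comparison of ploidies gave no difference beyond the spread. Probe set 1452514_a_at had signals of 475.1, 383.3 and 341.7 in haploid EpiSC-2 and 158, 121.2 and 161.6 in haploid EpiSC-1. It had 181.8, 156.3 and 123.2 in diploid EpiSC-2 and 417.3, 289 and 340.8 in diploid EpiSC-1. Haploid EpiSC-2 and diploid EpiSC-1 overlapped as the high lines, and haploid EpiSC-1 and diploid EpiSC-2 overlapped as the low lines, with a gap between the pairs. The log2 fold change between ploidies was 0.07 ± 0.52 (SE), with an adjusted p of 0.956 (limma). The other probe set, 1415900_a_at, read 9.8 to 49.4 and was under the filter signal on all 12 arrays.

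Among the ligands, Pdgfc, a PDGF chain that is secreted in latent form and activated by proteolysis, had the largest difference. Probe set 1419123_a_at had signals of 1512, 1631 and 1627 in haploid EpiSC-2 and 3546, 3609 and 3421 in haploid EpiSC-1. It had 294.8, 368.7 and 347 in diploid EpiSC-2 and 168.4, 190.7 and 206 in diploid EpiSC-1. Both haploid lines were above both diploid lines, and the lines of each ploidy did not overlap. The log2 fold change was 3.24 ± 0.32 (SE), a fold of 9.43, with an adjusted p of 6.12e-06 (limma) and 0.0242 with line means. The second probe set, 1449351_s_at, ranged from 1377 to 1638 in haploid EpiSC-2 and from 2317 to 3068 in haploid EpiSC-1, against 179.4 to 216.2 in diploid EpiSC-2 and 101.5 to 149.7 in diploid EpiSC-1. Its log2 fold change was 3.70 ± 0.36 (SE), with an adjusted p of 5.08e-06 and 0.0104 with line means. Both Pdgfc calls held in every alternative setting that was run. The promoter stretches of Pdgfc and Pdgfra, shown above, held fewer CpG dinucleotides than the median window. Those of Pdgfa and Kitl held more. These genes all stood above the diploid mean in both haploid lines. Any part of CpG content in the signal differences was not tested. No promoter sequence was available for Pdgfrb.

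Pdgfa, which encodes the A chain, was higher in haploid cells by 1 of its 2 probe sets. Probe set 1449187_at had signals of 675.2, 596.5 and 616.8 in haploid EpiSC-2 and 940.5, 927.3 and 1070 in haploid EpiSC-1. It had 419.9, 544.2 and 393.3 in diploid EpiSC-2 and 231, 199.3 and 192.8 in diploid EpiSC-1. No lines overlapped, and diploid EpiSC-2 came close to haploid EpiSC-2. This gave a log2 fold change of 1.36 ± 0.35 (SE), with an adjusted p of 0.0135 (limma) but 0.158 with line means. The call was lost without the line haploid EpiSC-1 (1.05, adjusted p 0.128) and without the line diploid EpiSC-1 (0.81, adjusted p 0.0725). Probe set 1418711_at ranked the lines in the same order and gave 1.19 ± 0.42 (SE), with an adjusted p of 0.0686 and 0.210 with line means.

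Pdgfb, which encodes the B chain, gave no call between the ploidies. Probe set 1450414_at had signals of 124.7, 155.5 and 205.4 in haploid EpiSC-2 and 285.7, 332.6 and 308.4 in haploid EpiSC-1. It had 254.5, 226.5 and 238 in diploid EpiSC-2 and 107.9, 85.66 and 80.83 in diploid EpiSC-1. Diploid EpiSC-2 lay above haploid EpiSC-2, so the ploidies were interleaved. Between the ploidies the log2 fold change was 0.58 ± 0.49 (SE), with an adjusted p of 0.486 (limma). The other probe set, 1450413_at, read 36.6 to 71.8 and was under the filter.

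Kitl was higher in haploid cells by 1 of its 3 tested probe sets. Probe set 1415855_at had signals of 271.8, 278.6 and 328.1 in haploid EpiSC-2 and 769.6, 617.5 and 609.8 in haploid EpiSC-1. It had 193, 218.9 and 205 in diploid EpiSC-2 and 140.7, 158.3 and 143.7 in diploid EpiSC-1. Haploid EpiSC-1 stood far above the other lines, and haploid EpiSC-2 was above diploid EpiSC-2 by a small gap. This gave a log2 fold change of 1.34 ± 0.35 (SE), with an adjusted p of 0.0156 (limma) but 0.171 with line means. It was lost without the line haploid EpiSC-1 (0.75, adjusted p 0.160) and without the line diploid EpiSC-1 (1.10, adjusted p 0.0627). Probe sets 1448117_at and 1426152_a_at gave 1.13 and 1.09 with adjusted p of 0.141 and 0.356, and 1415854_at was under the filter signal on all 12 arrays.

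**Figure D2:**
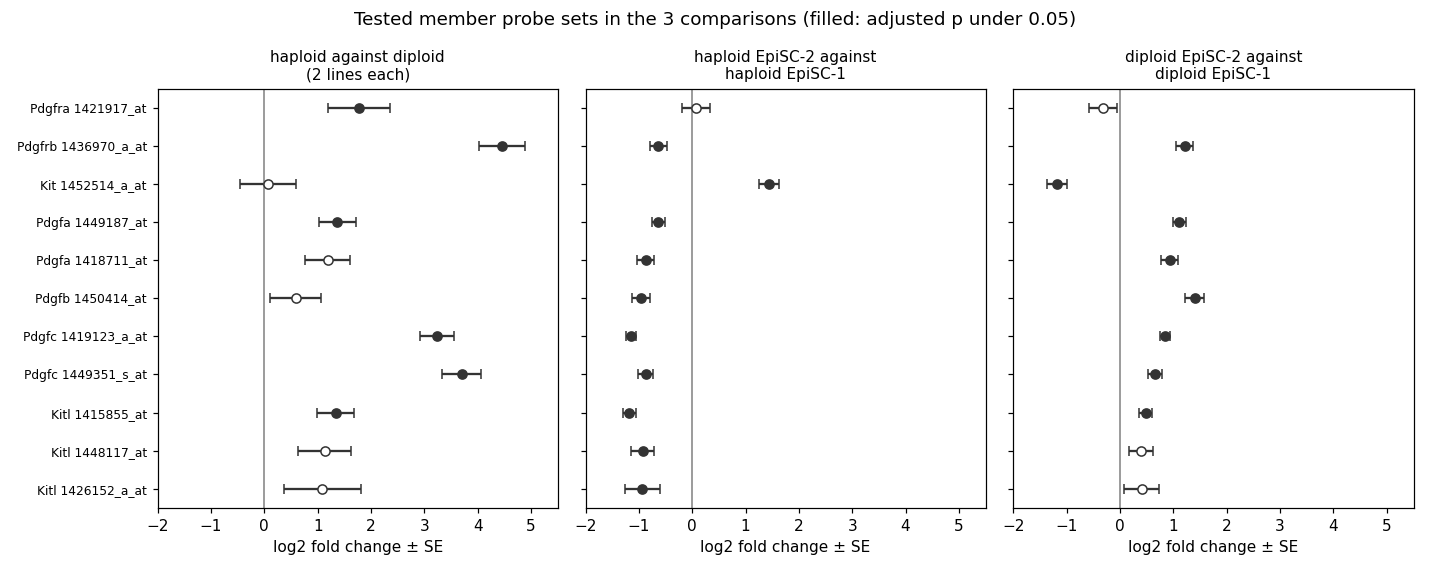
Log2 fold change ± SE of the 11 tested member probe sets in the 3 comparisons, receptors above ligands, with filled points for adjusted p under 0.05. Pdgfrb (4.46) and Pdgfc (3.24 and 3.70) lie farthest right in the first panel, and Kit has the opposite sign to the other called probe sets in both panels of lines.

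The lines of each ploidy were then compared with each other, in a limma fit of 4 line means over the 12 arrays. Between the haploid lines, 10 of the 11 member probe sets were called, with haploid EpiSC-2 higher in 1 and lower in 9. Of all tested probe sets 49.5% were called, 22.8% higher and 26.7% lower. Between the diploid lines, 8 of 11 were called, 7 higher and 1 lower in diploid EpiSC-2 than in diploid EpiSC-1, against 53.3% of all tested probe sets, 22.4% higher and 30.9% lower. The member medians were -0.87 and 0.66 on the log2 scale, against -0.04 and -0.06 over all tested probe sets.

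Kit was the member that was higher in haploid EpiSC-2 and lower in diploid EpiSC-2. Its log2 fold change was 1.44 ± 0.18 (SE) between haploid EpiSC-2 and haploid EpiSC-1, a fold of 2.72, with an adjusted p of 1.40e-05 (limma). Between diploid EpiSC-2 and diploid EpiSC-1 it was -1.18 ± 0.18 (SE), with an adjusted p of 7.81e-05. Kitl, its ligand, moved the other way in both comparisons: probe set 1415855_at gave -1.18 ± 0.12 (SE) between the haploid lines, with an adjusted p of 1.63e-06. The same Kitl probe set gave 0.48 ± 0.12 (SE) between the diploid lines, with an adjusted p of 0.00380. In both ploidies the line with more Kit signal thus had less Kitl signal. With 4 lines, this order is a description of these lines only.

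Kitl probe sets 1448117_at and 1426152_a_at were also lower in haploid EpiSC-2, both with a log2 fold change of -0.93, and adjusted p of 0.00246 and 0.0259. The call of 1426152_a_at was lost in 5 of 13 alternative settings, with adjusted p up to 0.131. Between the diploid lines neither passed, with adjusted p of 0.146 and 0.313.

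The PDGF chains and Pdgfrb shared a direction within each ploidy. Between the haploid lines, the log2 fold changes were -1.15 and -0.87 for the Pdgfc probe sets, -0.64 and -0.87 for Pdgfa, -0.96 for Pdgfb and -0.64 for Pdgfrb. The highest adjusted p among these 6 was 0.00418 (limma), that of Pdgfrb. Between the diploid lines they were 0.84 and 0.66 for Pdgfc, 1.11 and 0.93 for Pdgfa, 1.40 for Pdgfb and 1.21 for Pdgfrb. The highest adjusted p there was 9.59e-04, that of Pdgfc probe set 1449351_s_at. Pdgfra differed in neither ploidy beyond the spread, with 0.06 (adjusted p 0.860) between the haploid lines and -0.33 (adjusted p 0.313) between the diploid lines.

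The members of each line can be read together. Haploid EpiSC-1 had the highest signal of Pdgfrb, Pdgfa, Pdgfb, Pdgfc and Kitl, with no overlap with any other line at their brightest probe sets, and shared the lowest Kit signal with diploid EpiSC-2. Haploid EpiSC-2 was second for Pdgfrb, Pdgfa, Pdgfc and Kitl, was below diploid EpiSC-2 for Pdgfb, and had high Kit. Diploid EpiSC-2 came next after haploid EpiSC-2 for Pdgfrb, Pdgfa, Pdgfc and Kitl, was second for Pdgfb, and had low Kit. Diploid EpiSC-1 was lowest for Pdgfrb and all 4 ligands and had high Kit. Pdgfra did not follow this order, as its lines overlapped within each ploidy. It averaged 258 in haploid EpiSC-2 and 250 in haploid EpiSC-1, against 70.0 in diploid EpiSC-2 and 82.5 in diploid EpiSC-1.

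**Figure D3:**
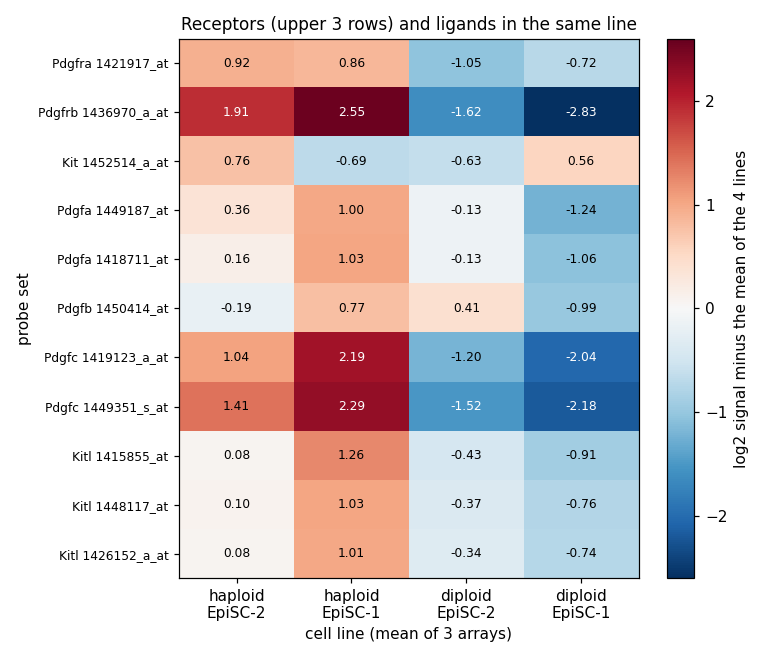
Mean log2 signal of each tested member probe set in each line (3 arrays), minus the mean of the 4 lines, with receptors in the upper 3 rows and ligands below. The ligand rows and Pdgfrb are highest in haploid EpiSC-1 and lowest in diploid EpiSC-1, whereas Kit is highest in haploid EpiSC-2 and diploid EpiSC-1.

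The other genes of these pathways were summarised at the brightest probe set per gene, in lists drawn up with earlier results of these data known. Among all 11105 genes tested, 19.1% were called, 10.7% higher and 8.35% lower in haploid cells, with a median log2 fold change of 0.0027. With line means, 3.34% of the same genes were called, 2.31% higher and 1.04% lower. Of 9 tested ligands and receptors of the wider family, 3 were higher and 0 lower in haploid cells, with a median of 0.25. Vegfc, a lymphatic growth factor, had 4.39 ± 0.35 (SE), with an adjusted p of 7.45e-07 and 0.0104 with line means. Its mean signals were 480 in haploid EpiSC-2 and 1087 in haploid EpiSC-1, against 29.2 in diploid EpiSC-2 and 40.4 in diploid EpiSC-1. All its diploid arrays were under the filter signal, so it passed only through the haploid lines and the size of its difference is uncertain. Csf1, the ligand of the macrophage receptor, had 1.66, with an adjusted p of 7.04e-04 but 0.0906 with line means. Vegfa, a vascular growth factor, had 0.72, with an adjusted p of 0.0300 but 0.265 with line means. Pdgfd, the remaining PDGF chain, had mean signals of 30.3, 11.4, 12.1 and 9.37 in haploid EpiSC-2, haploid EpiSC-1, diploid EpiSC-2 and diploid EpiSC-1, all under the filter signal.

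Of 13 tested genes for ligand processing, co-receptors and ligand binding, 6 were higher and 1 was lower in haploid cells, with a median of 1.33. Plat encodes tissue plasminogen activator, a protease that activates PDGF-CC. Its mean signals were 1234 in haploid EpiSC-2 and 1718 in haploid EpiSC-1, against 148 in diploid EpiSC-2 and 103 in diploid EpiSC-1. Its log2 fold change was 3.57 ± 0.30 (SE), with an adjusted p of 1.07e-06 (limma) and 0.00890 with line means. Plat and Pdgfc were thus both higher in both haploid lines. Nrp1, a co-receptor for VEGF and semaphorins that also binds PDGF ligands, had 3.75 ± 0.38 (SE), with an adjusted p of 7.40e-06 and 0.0139 with line means. Its mean signals were 663 in haploid EpiSC-2 and 1537 in haploid EpiSC-1, against 84.2 in diploid EpiSC-2 and 68.2 in diploid EpiSC-1. The diploid signals were close to the filter signal, so the size is uncertain. Lrp1, an endocytic receptor, and Adam10, a sheddase, had 1.34 and 1.33, with adjusted p of 2.55e-04 and 7.51e-05 but 0.0612 and 0.0588 with line means. The gene that was lower, named after its values were seen, was A2m, which encodes a protease inhibitor that binds PDGF, at -2.43 with an adjusted p of 0.00137 and 0.0314 with line means. All its haploid arrays were under the filter signal, so this size too is uncertain. Between the haploid lines, 1 of the 13 was higher and 10 were lower in haploid EpiSC-2, where 55.3% of all genes were called, 25.0% higher and 30.3% lower. Between the diploid lines, 7 were higher and 4 lower in diploid EpiSC-2, where 55.2% of all genes were called, 26.1% higher and 29.1% lower.

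Of 34 tested adaptors and effectors downstream of the receptors, 7 were higher and 0 lower in haploid cells, with a median of 0.32. Pik3r1, the regulatory subunit of PI3 kinase that docks on PDGF receptors and Kit, had 1.70, with an adjusted p of 1.48e-04 and 0.0369 with line means. Akt1, a kinase downstream of it, had 1.51, with an adjusted p of 1.66e-04 and 0.0346 with line means. Nck2, an adaptor, and Sos1, a Ras exchange factor, had 1.10 and 0.88, with adjusted p of 0.00115 and 0.00221 but 0.111 and 0.146 with line means. Of 15 tested transcriptional targets, 4 were higher and 0 lower in haploid cells, and 0 of these calls held with line means. The 4 were Junb at 1.61, Jun at 0.77, Fos at 1.43 and Ier3 at 1.10, all of them genes induced early after receptor activation. Other early genes, Egr1, Egr2, Egr3 and Ier2, were not called, with adjusted p of 0.192, 0.941, 0.244 and 0.703 (limma). Ier3 averaged 1522 in haploid EpiSC-2 and 4750 in haploid EpiSC-1, against 1036 in diploid EpiSC-2 and 1516 in diploid EpiSC-1. Receptor activity was not measured.

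Among markers of other cell types, most of the tested fibroblast markers differed between the ploidies in the direction of Pdgfrb and Pdgfc. The summed signal of 12 fibroblast markers was 16106 to 16849 in haploid EpiSC-2 and 19195 to 19669 in haploid EpiSC-1, against 987 to 1094 in diploid EpiSC-2 and 703 to 823 in diploid EpiSC-1. Of the 9 tested, 7 were higher and 0 lower in haploid cells, among them the collagen genes Col1a2 at 4.27 and Col3a1 at 6.56 on the log2 scale. Of these 7, Postn, Loxl1 and Prrx1 were under the filter signal on all diploid arrays, so they passed only through the haploid lines. Col1a1 and Col3a1 were under it on all arrays of diploid EpiSC-1, where Col3a1 averaged 51.8. The count of 7 thus rests in part on such genes, and their sizes are uncertain. Thy1 and Dcn were tested but not called, at -0.25 and 3.97, with adjusted p of 0.763 and 0.154 (limma). Fap was under the filter signal in both haploid lines. In diploid EpiSC-2, 6 of the 12 were under the filter signal, and in diploid EpiSC-1, 8 were. Their part in the Pdgfrb and Pdgfc differences was not tested. In these bulk samples, fewer cells of a type and less RNA per cell cannot be told apart.

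The 10 pericyte and smooth muscle markers summed to 20739 to 21232 in haploid EpiSC-2 and 13390 to 13752 in haploid EpiSC-1, against 6740 to 6964 in diploid EpiSC-2 and 2701 to 3108 in diploid EpiSC-1. Of the haploid lines, EpiSC-2 had the higher marker sum. Of the 5 tested, 2 were higher and 0 lower in haploid cells, namely the smooth muscle actin gene Acta2 and Tagln, another gene of contractile cells, which gave most of the summed signal in the haploid lines. Acta2 averaged 12964 in haploid EpiSC-2 and 7100 in haploid EpiSC-1, against 1099 in diploid EpiSC-2 and 512 in diploid EpiSC-1, and had 3.68, with an adjusted p of 2.67e-07 and 0.0141 with line means. Tagln averaged 6068 in haploid EpiSC-2 and 4255 in haploid EpiSC-1, against 3502 in diploid EpiSC-2 and 327 in diploid EpiSC-1, and had 2.25, with an adjusted p of 0.0244 but 0.271 with line means. Notch3, Des and Cnn1 were tested but not called, at -0.09, -0.58 and 0.46, with adjusted p of 0.827, 0.530 and 0.353 (limma). Of the markers more restricted to these cells, Myh11, Kcnj8 and Abcc9 were under the filter signal in all 4 lines. The part of these 10 markers in the Pdgfrb difference was not tested. Of the 10 tested markers of the pluripotent epiblast, 1 was higher and 4 were lower in haploid cells, with a median of -0.72.

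For Pdgfra, markers of the primitive and visceral endoderm and of nascent mesoderm were summed. The 10 endoderm markers gave 3367 to 3769 in haploid EpiSC-2 and 1135 to 1251 in haploid EpiSC-1, against 1063 to 1079 in diploid EpiSC-2 and 1733 to 1889 in diploid EpiSC-1. The 10 mesoderm markers gave 1767 to 1899 in haploid EpiSC-2 and 760 to 836 in haploid EpiSC-1, against 1025 to 1174 in diploid EpiSC-2 and 1160 to 1198 in diploid EpiSC-1. Both sums were higher in haploid EpiSC-2 than in any other line. In haploid EpiSC-2, Sox17 (1341) and Foxa2 (915) gave most of the endoderm sum. Eomes (1013) and Mixl1 (434) gave most of the mesoderm sum there. Sox7, Hnf4a and Ttr were under the filter signal in all 4 lines. Of the 3 mesoderm markers tested, 0 were called. Of the 4 endoderm markers tested, 1 was higher and 0 were lower in haploid cells, namely Dab2. Dab2 averaged 634 in haploid EpiSC-2 and 531 in haploid EpiSC-1, against 143 in diploid EpiSC-2 and 199 in diploid EpiSC-1. It had 1.78, with an adjusted p of 3.35e-04 (limma) and 0.0362 with line means. Dab2 was not called between the haploid lines (adjusted p 0.0850) but was lower in diploid EpiSC-2 than in diploid EpiSC-1 (-0.47, adjusted p 0.00295). The part of these markers in the Pdgfra difference was not tested.

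For Kit, markers of lineages that depend on it were summed. The 7 germ cell markers summed to 479 to 723 in haploid EpiSC-2 and 794 to 865 in haploid EpiSC-1, against 339 to 392 in diploid EpiSC-2 and 194 to 235 in diploid EpiSC-1. The germ cell genes Dazl, Ddx4, Prdm14 and Mael were under the filter signal in all 4 lines. Tfap2c, a transcription factor gene not restricted to germ cells, averaged 265 in haploid EpiSC-2 and 593 in haploid EpiSC-1, against 172 in diploid EpiSC-2 and 34.9 in diploid EpiSC-1. It had 2.35, with an adjusted p of 0.0261 but 0.174 with line means. The 10 blood markers summed to 636 to 685, 1004 to 1005, 300.2 to 311 and 244 to 280 in the same order of lines, and Ptprc, Tal1, Hbb-y, Cd34, Fcer1a and Cpa3 were under the filter signal throughout. Runx1, a transcription factor gene of blood progenitors, averaged 379 in haploid EpiSC-2 and 607 in haploid EpiSC-1, against 19.8 in diploid EpiSC-2 and 35.3 in diploid EpiSC-1, where it was under the filter signal. It had 4.20, with an adjusted p of 1.52e-05 and 0.0104 with line means. Runx1 passed the filter only through the haploid lines, so the size of its difference is uncertain. Gata2, another such gene, averaged 116 in haploid EpiSC-2 and 239 in haploid EpiSC-1, against 72.6 in diploid EpiSC-2 and 43.0 in diploid EpiSC-1, and its 1.60 had an adjusted p of 0.0614. The 6 melanoblast markers summed to 256 to 272, 389 to 481, 332 to 412 and 275 to 396, with Dct, Tyr and Tyrp1 under the filter signal throughout. The germ cell and blood sums were highest in haploid EpiSC-1. Tfap2c gave most of the germ cell sum there, and Runx1 and Gata2 gave most of the blood sum. The part of these markers in the Kit differences between lines was not tested.

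Pdgfra and Kit neighbour each other on mouse chromosome 5, followed by Kdr, a receptor for VEGF. In the order of the RefSeq table, the genes run Fip1l1, Lnx1, Chic2, Gsx2, Pdgfra, Kit, Kdr, Srd5a3, Tmem165 and Clock. Of the 7 tested neighbours, 0 were higher and 1 was lower in haploid cells, namely Lnx1, a ubiquitin ligase, at -1.16 with an adjusted p of 0.0222 but 0.175 with line means. Kdr gave 0.25 with an adjusted p of 0.895, on signals near the filter, and Chic2 gave 0.17 with an adjusted p of 0.513. Gsx2, next to Pdgfra, was under the filter. Pdgfra and Kit, although adjacent, thus differed in which lines were high. Of the 4 tested neighbours of Pdgfrb, 0 were called between the ploidies, the related receptor gene Csf1r among them at -0.10 with an adjusted p of 0.945.

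**Figure D4:**
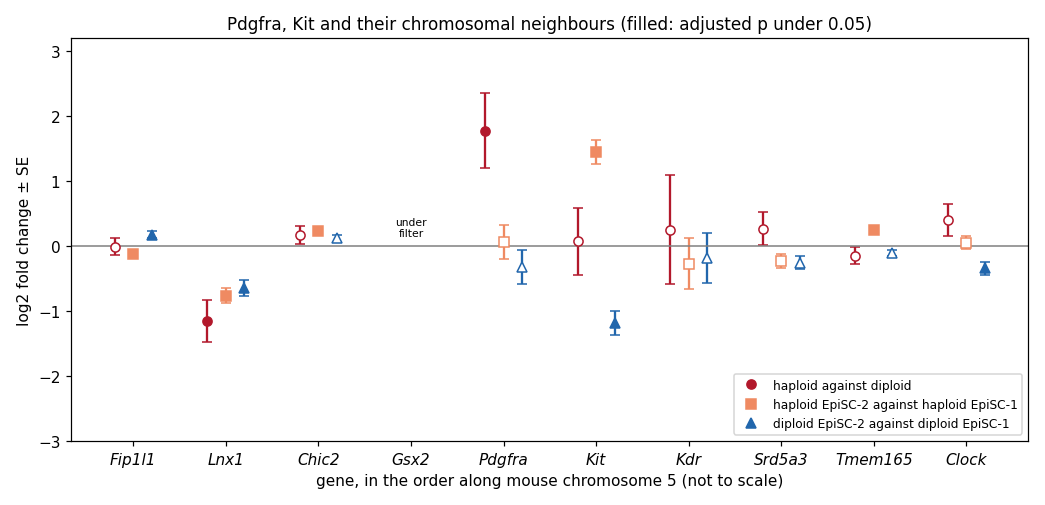
Log2 fold change ± SE of the genes around Pdgfra and Kit, in their order along chromosome 5 and not to scale, in the 3 comparisons, with filled points for adjusted p under 0.05. Pdgfra has the largest haploid against diploid difference among these genes (1.77), and Kit has the largest differences between lines of a ploidy (1.44 and -1.18).

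The genes whose log2 signal followed each member most closely over the 12 arrays were listed by Pearson's r. The arrays fall into 4 lines, so these values describe the order of the lines, with no test. For Pdgfrb they were Col1a2 (0.998), a fibrillar collagen gene, Gxylt2 (0.997) and Syap1 (0.997). For Pdgfc they were Ppdpf (0.997), Zeb1 (0.997), a transcription factor known from epithelial-mesenchymal transition, and Hipk2 (0.996), a nuclear kinase. For Pdgfa they were Tubb2a (0.992), Secisbp2l (0.991) and Tmem37 (0.990), and for Pdgfb they were Med21 (0.973), Laptm4b (0.968) and Ggh (0.968). For Pdgfra they were Gramd3 (0.972), Baz1b (0.971) and Cd1d1 (0.964). For Kit they were Mapre2 (0.964), a microtubule end-binding gene, Chek1 (0.960), a checkpoint kinase gene, and Zfp771 (0.957). For Kitl they were Mmd (0.989), Prkcd (0.988) and Gchfr (0.988).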

How the data were processed

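The authors deposited linear signal intensities made with MAS5, as named in the submitters' processing notes, whose version is not given in the sources used here. Each array had a mean of 500.0 after trimming 2% of probe sets at either end, which reflects scaling before deposit. Of 45101 probe sets, 64 controls were dropped, 34945 had 1 gene symbol in the platform annotation, 932 several and 9160 none. Probe sets with 1 symbol and a mean log2 signal of at least 5.97 (the median over probe sets) were tested, on log2 signals with no pseudocount. MAS5 takes mismatch probes into account, so low signals are noisy. Levels of different probe sets were set beside each other only to choose the brightest per gene and in the marker sums, where bright probe sets weigh most. Detection calls were not used here.

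Fits used limma 3.58.1 with statmod 1.5.0 in R 4.3.3, with an intensity trend and Benjamini-Hochberg adjustment over all tested probe sets, at a threshold of 0.05, two-sided. Ploidies were compared with the line as a random block (correlation 0.769), and lines in a fit of 4 group means. The scripts were tested on simulated data. Alternatives covered normalization, pseudocount, filter, brightest probe set, variance trend, blocks, line means, and leaving out arrays or lines. Members, lists and markers were chosen with earlier results of these data known. Named genes were every member, up to 4 genes with the lowest p per list, Pdgfd, chromosomal neighbours, and the 3 genes most like each member. Further list genes were named after their values were seen. The number of arrays limits the precision.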

Additional observations from a re-analysis of the deposited data

Results flagged for a closer look

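For 10 of the 11 tested member probe sets, the difference from the diploid lines was not the same in both haploid lines. This was by a limma test of haploid EpiSC-2 against haploid EpiSC-1, which share the same diploid arrays. By the same test 49.5% of all 19837 tested probe sets were called, so such a difference was common on these arrays. The difference between the haploid lines was -1.18, -0.93 and -0.93 on the log2 scale for the Kitl probe sets 1415855_at, 1426152_a_at and 1448117_at. It was -0.87 and -0.64 for the Pdgfa probe sets 1418711_at and 1449187_at, and -1.15 and -0.87 for the Pdgfc probe sets 1419123_a_at and 1449351_s_at. It was -0.64 for Pdgfrb, -0.96 for Pdgfb and 1.44 for Kit. Against the mean of the diploid lines, Pdgfrb stood 4.14 higher in haploid EpiSC-2 and 4.78 higher in haploid EpiSC-1, so the direction was shared, as it was for Pdgfa, Pdgfc and Kitl. Kit stood 0.79 higher in haploid EpiSC-2 and at -0.65 in haploid EpiSC-1, so its direction was not shared.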

How the results depend on the processing

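Between the ploidies, 3157 probe sets were called. The count was 5655 with no filter, 1722 with a mean log2 signal of at least 8, 1913 with the brightest probe set per gene, 601 with line means, 9133 with no line block and 2019 without the line haploid EpiSC-1. Leaving out 1 array gave 2845 to 2978. The 6 member probe sets became 3 without the line haploid EpiSC-1 and 5 to 6 without 1 array. Between the haploid lines, 9827 calls became 6288 with the brightest probe set per gene and 8784 to 9005 without 1 array. The 10 member calls became 5 with a mean log2 signal of at least 8, 6 with the brightest probe set and 9 to 10 without 1 array. Between the diploid lines, 10574 calls became 6196 with the brightest probe set and 9503 to 9863 without 1 array. The 8 member calls became 5 with a mean log2 signal of at least 8 and 8 to 9 without 1 array. With fewer probe sets tested under the stricter filter or the brightest probe set, fewer could be called.

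Centring the arrays on their medians moved the median log2 fold change between the ploidies to -0.15, against 0.03 as deposited, and that between the haploid lines to 0.12, against -0.04. The split between the ploidies was then 1211 higher and 2196 lower, against 1859 and 1298, and that between the haploid lines 7001 higher and 3332 lower, against 4522 and 5305. Quantile normalization gave 1696 and 1577, and 5181 and 4611.

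The Kit difference between the ploidies changed sign, with no call, at -0.12 with centred arrays, -0.11 with quantile normalization, -0.65 without the line haploid EpiSC-2 and -0.52 without the line diploid EpiSC-2. It was -0.016 to 0.15 when 1 array was left out. Pdgfb between the ploidies gave -0.11 without the line diploid EpiSC-1, and Pdgfra between the haploid lines gave -0.10 to 0.24 when 1 array was left out. The cause was not tested. Pdgfra passed between the diploid lines at -0.66, adjusted p 0.0242, without diploid EpiSC-2 replicate 3.

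Replicate numbers did not pair the samples: the correlation of deviations of same-numbered arrays was -0.0353 to 0.0807 over 18 pairs. With the replicate number as a block, 2692, 9882 and 10588 probe sets were called in the 3 comparisons, with 5, 10 and 8 member probe sets, and Pdgfra between the ploidies had an adjusted p of 0.0744.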

Other observations

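Of 16 tested genes that inactivate or turn over receptor tyrosine kinases, 4 were higher and 2 lower in haploid cells, and 0 of these calls held with line means. Grb10, an adaptor that binds PDGF receptor beta and Kit, had -3.55, with an adjusted p of 1.06e-04 (limma) but 0.0679 with line means. Of 13 tested transcription factors known to act on Kit or Pdgfr genes, 3 were higher and 2 lower in haploid cells. Prrx1, a mesenchymal homeobox factor, averaged 802 in haploid EpiSC-2 and 684 in haploid EpiSC-1, against 26.1 in diploid EpiSC-2 and 13.9 in diploid EpiSC-1. Its log2 fold change was 5.37, with an adjusted p of 7.12e-05 (limma) and 0.00462 with line means, but all its diploid arrays were under the filter signal, so the size is uncertain. Foxc1 averaged 391 in haploid EpiSC-2 and 256 in haploid EpiSC-1, against 60.9 in diploid EpiSC-2 and 66.4 in diploid EpiSC-1, close to the filter signal, and had 2.31, with an adjusted p of 3.09e-04 and 0.0273 with line means. Myb, a transcription factor of blood progenitors, had mean signals of 299 in haploid EpiSC-2 and 71.0 in haploid EpiSC-1, against 630 in diploid EpiSC-2 and 2064 in diploid EpiSC-1. Its log2 fold change was -3.01, with an adjusted p of 0.00888 but 0.114 with line means.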
